A study of Mus musculus with 63 samples.

Results

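miR-653 and miR-489 are a pair of neighbouring microRNAs of the mouse genome, and their mature forms were followed here in 4 sorted kidney cell populations through ureteric obstruction and its reversal. The members are mmu-miR-653-5p, mmu-miR-653-3p and mmu-miR-489-3p, 3 of the 2110 loci of mature miRNAs in the count table, found by name. They were chosen by a measured value, the rise in proximal tubular (PT) cells 2 days after obstruction. For the members, every contrast of PT cells that uses the sham or the 2-day libraries is therefore a description without a test. At 2 days against sham miR-653-5p had a log2 fold change of 4.26, position 2 among the 330 loci that could be compared in PT cells.

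Small RNA was sequenced from 4 populations sorted by flow cytometry from digested kidney: CD31+ endothelial cells (ECs), F4/80hi macrophages (Macs), stromal cells gated on PDGFR-β, and PT cells gated on LTL, a lectin that binds the proximal tubule. The Macs were CD45+ and the other populations CD45-, with CD31+ cells also gated out of the last 2. The mice were male C57BL/6, 8 to 12 weeks old when operated, with no engineered allele named for any group. The groups were sham-operated mice, mice 2 days (UUO-2) and 7 days (UUO-7) after ligation of one ureter, and mice with the ureter reimplanted after 7 days of obstruction and killed 2 weeks later (R-UUO). Each group had 4 mice, picked from 5 operated as those nearest to the group mean of Havcr1, the gene of a tubular injury marker, so the spread between mice may be narrower than in an unselected group. The cell types of one mouse share its number, and 63 libraries from 16 mice were counted because PDGFR-β+ cells at UUO-7 had 3 libraries (numbers 2, 4 and 5), with 1 left out by the authors as an outlier.

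A microRNA is cut from a hairpin in a longer transcript, and each side of the stem can give a mature strand, named 5p or 3p, of which one is usually kept. The kept strand guides Argonaute proteins to messenger RNAs that pair with its seed, bases 2 to 8, and lowers their translation or stability. Both hairpins lie inside an intron of Calcr, the gene of the calcitonin receptor, a G protein-coupled receptor, and miR-489 is best known for keeping muscle stem cells quiescent. After ureteric obstruction PT cells are stretched, lose part of their differentiated program and in part die, and the interstitium fills with macrophages and matrix-producing stromal cells.

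The sequences are shown first because the strand that was counted, and the seed it carries, differ between the hairpins. In the RefSeq annotation of GRCm38.p6 all 3 members matched the loci of the count table by name, start and end. The seed is in capitals, 5′ to 3′, all on the minus strand of chromosome 6.
mmu-miR-653-5p (chr6:3721355-3721375): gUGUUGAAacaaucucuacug
mmu-miR-653-3p (chr6:3721315-3721335): uUCACUGGaguuuguuucagu
mmu-miR-489-3p (chr6:3721922-3721944): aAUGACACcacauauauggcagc
The opposite strand of the second hairpin is mmu-miR-489-5p, which is no member but is the sole other locus of the table within 10 kb.
mmu-miR-489-5p (chr6:3721957-3721981): uGUCAUAUgugugaugacacuuucu
The next locus in the table on that chromosome, miR-6370, begins 15833457 bases away. The hairpins hold the mature strands as follows, with the mature strands in capitals.
Mir653 (chr6:3721301-3721385): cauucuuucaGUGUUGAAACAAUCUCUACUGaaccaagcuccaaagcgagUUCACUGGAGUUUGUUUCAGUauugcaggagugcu
Mir489 (chr6:3721897-3722003): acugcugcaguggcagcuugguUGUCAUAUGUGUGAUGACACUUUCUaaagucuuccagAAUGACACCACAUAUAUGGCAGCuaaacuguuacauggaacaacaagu

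The hairpins are 511 bases apart and, read along the minus strand, Mir489 comes before Mir653. In the GENCODE annotation of GRCm38 (vM21) both lie in an intron of 4204 bases of Calcr (chr6:3685680-3764714, minus strand), from base 3718719 to base 3722922, in all 5 annotated transcripts and in no exon. That intron follows exon 4 in Calcr-201, Calcr-202 and Calcr-205 and exon 2 in Calcr-203 and Calcr-204. Calcr messenger RNA was not measured here, since the libraries hold small RNA. No other mature miRNA among the 1675 names of the table that RefSeq holds shares a seed with either strand of miR-653. The seed of miR-489-3p is also that of mmu-miR-425-5p, whose sequence is given for comparison, from chr9:108568789-108568811 on the plus strand.
mmu-miR-425-5p: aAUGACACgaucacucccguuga

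The smallest library held 616565 counts and the largest 10819385, with PT cells the shallowest population. Values below are counts, or counts per 1000000 of the library total (CPM), which ignore the composition of the library, and log2 fold changes from edgeR, which scale libraries by TMM. Summed markers were highest in the population they name: miR-192 and miR-194 family members, known PT cell miRNAs, summed to between 8330 and 180204 CPM in PT cells and to at most 7448 CPM in the other populations. One library stood apart, R-UUO PT cells of mouse 1, which held the 8330 CPM where the other PT libraries of R-UUO held 43695 to 74184 CPM, and the means, medians and fold changes of miR-653-5p, miR-489-3p, miR-425-5p and the lists that rest on it are also given without it. Of the 3 members, miR-653-5p passed the filter on low counts in each cell type, miR-489-3p passed it only in the fit over all 63 libraries and miR-653-3p in no fit. In sorted cells, more of a miRNA per cell and more cells of a kind that carries it cannot be told apart.

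miR-653-5p was scarce in sham PT cells and plentiful after obstruction. The sham libraries of mice 1 to 4 held 6, 8, 10 and 2 counts, or 8.29, 12.8, 10.1 and 2.56 CPM. At UUO-2 the libraries of mice 1 to 4 held 113, 176, 251 and 139 counts, or 119.7, 160.2, 149.8 and 141.6 CPM. Every UUO-2 library was therefore far above every sham library, with no overlap.

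At UUO-7 the PT libraries of mice 2 to 5 held 170, 178, 678 and 193 counts of miR-653-5p, or 76.8, 106.9, 133.1 and 91.1 CPM. In R-UUO those of mice 1, 2, 4 and 5 held 262, 152, 20 and 100 counts, or 83.9, 108.0, 32.4 and 108.7 CPM. The groups at UUO-7 and R-UUO overlapped each other, and both lay wholly above sham. The lowest R-UUO value came from mouse 4, the smallest library of all. The library of mouse 1, which stood apart in its markers, lay within the range of the others by library total, but under TMM scaling, which gave it a factor of 0.427, it was at 196.7 CPM, the highest of the 16 PT libraries, where the other R-UUO libraries were at 104.5, 32.6 and 96.5 CPM.

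The mean of miR-653-5p in PT cells was 8.46 ± 4.35 CPM for sham mice, 142.8 ± 17.2 CPM for UUO-2, 102.0 ± 24.1 CPM for UUO-7 and 83.3 ± 35.8 CPM for R-UUO (SD, n = 4 each). The ratios of these means to sham were 16.9, 12.1 and 9.85, and the fitted log2 fold changes against sham were 4.26, 3.98 and 3.94, where the median of the 330 loci was 0.02, 0.00 and 0.03. Its position by mean level among the loci moved from 309 in sham to 125, 137 and 143. Without the R-UUO library of mouse 1 the R-UUO mean was 83.1 CPM and its log2 fold change against sham 3.54. These contrasts share the sham libraries that chose the members and carry no test. For scale, 19.1% of the 330 loci had every UUO-2 library above every sham library, 20% did so at UUO-7 and 13% in R-UUO.

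**Figure D1:**
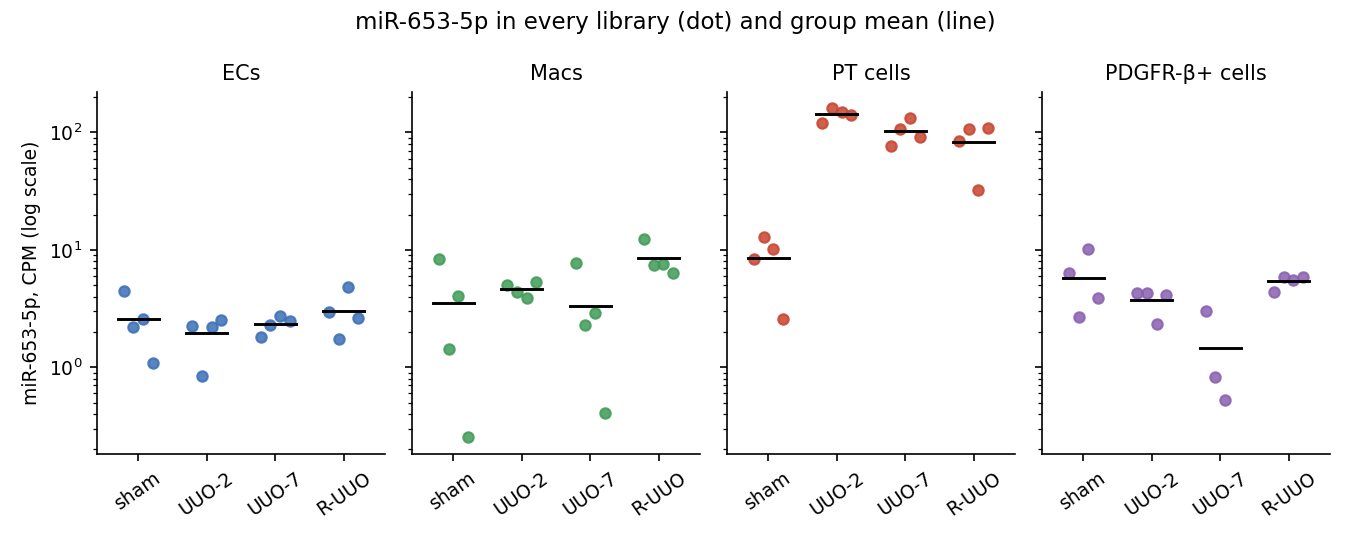
miR-653-5p in CPM (log axis) in each of the 63 libraries (dots) by cell type and condition, with the group mean as a line. PT libraries after obstruction or reversal lie between 32.4 and 160.2 CPM, above all libraries of the other 3 populations, which reach at most 12.5 CPM.

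Reversal was the one PT contrast that used none of the libraries that chose the members, and no change of miR-653-5p was detected in it. The log2 fold change of R-UUO against UUO-7 was -0.03 ± 0.40 (SE; 95% interval -0.87 to 0.80; edgeR quasi-likelihood test, adjusted p = 0.989), so a fall or rise of up to about 0.8 on the log2 scale is not excluded by the interval. Few loci moved in that contrast at all: 1.52% of the 330 were called, at an adjusted p below 0.05 and a fold change over 1.5. Without the library of mouse 1 the value was -0.45, and without that of mouse 4 it was 0.25, both not called.

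The level in PT cells can also be set against the other populations in libraries that the choice did not use. At UUO-7 miR-653-5p was higher in PT cells than in the mean of the other 3 populations by a log2 of 5.50 ± 0.39 (SE; edgeR quasi-likelihood test over 63 libraries, adjusted p = 7.47e-18). In R-UUO the difference was 4.00 ± 0.35 (adjusted p = 1.99e-14). Differences between cell types were common, with 51.3% and 50.2% of the 671 loci called. Without the R-UUO PT library of mouse 1 the R-UUO difference was 3.51. In sham the same difference was 0.48 and at UUO-2 it was 5.19, both as descriptions.

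Within single mice the order is given as a description, since the sham and UUO-2 PT libraries chose the members. PT cells had the highest miR-653-5p of the mouse's sorted populations in 4 of 4 mice of every obstructed or reversed group, and in 1 of 4 sham mice. The ratio of PT cells to the next highest population was 24.0 to 38.3 for UUO-2, 9.87 to 46.8 for UUO-7 and 4.26 to 17.2 for R-UUO, against 0.658 to 4.81 for sham. The 46.8 was that of UUO-7 mouse 3, which had no PDGFR-β+ library, and mouse 4 of that group followed at 45.6. In R-UUO the next highest population was Macs in every mouse, and the lowest ratio was again that of mouse 4.

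**Figure D2:**
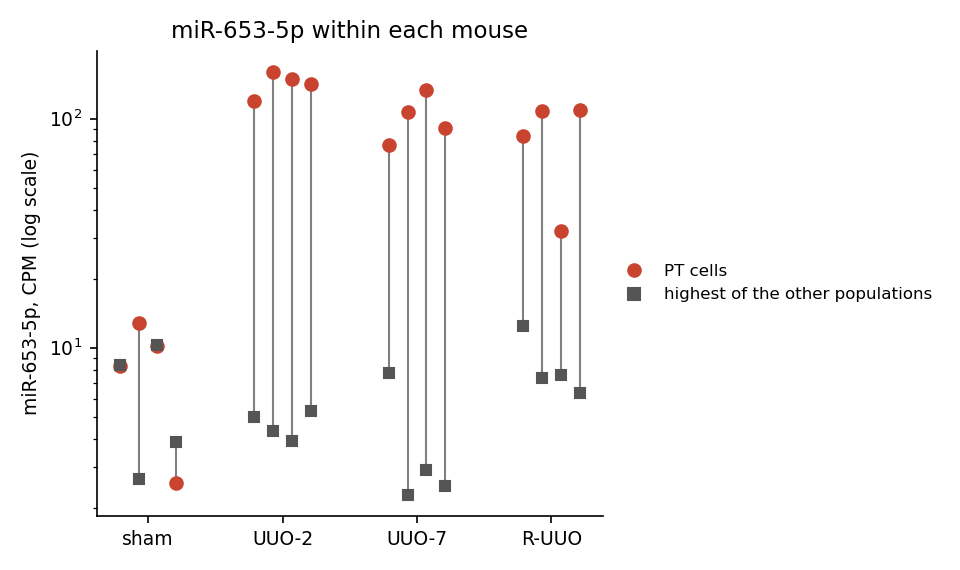
miR-653-5p in CPM (log axis) in PT cells (circles) and in the highest of the other populations (squares) of each mouse, joined by a line, by condition. The symbols lie close together or change order in 3 of 4 sham mice and are at least 4.26 times apart in every obstructed or reversed mouse.

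The summed CPM of PT cell markers was lower in the libraries in which miR-653-5p was high. Their summed level had a median of 173908 CPM in sham PT cells (range 152892 to 180204), with 74348 for UUO-2, 42909 for UUO-7 and 57704 for R-UUO (71713 without mouse 1). The marker loci differed in the edgeR fit. Of the 4 tested against sham, 1 was called lower at UUO-2 (median log2 fold change -0.55) and 3 at UUO-7 (median -1.31). Of all 330 loci 14 and 58 were called lower. miR-192-3p was not called in either contrast (-0.13 and -0.46). Markers of PDGFR-β+ cells (the miR-143, miR-145, miR-199 and miR-214 group) had medians of 3387, 8536, 9153 and 6315 CPM in the same PT libraries, the last 5746 CPM without mouse 1. In PDGFR-β+ cells themselves miR-653-5p reached at most 10.2 CPM, and in any library of the other 3 populations at most 12.5 CPM, below the lowest PT library after injury. Markers of other nephron epithelium (5 of the miR-200 family) ranged from 4526 to 10831 CPM over the PT libraries. No other epithelium was sorted. Its part in the PT values was not tested, nor was that of the other sorted populations. The R-UUO library of mouse 1, with few PT cell markers, held 83.9 CPM of miR-653-5p by library total and 196.7 CPM under TMM scaling.

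**Figure D3:**
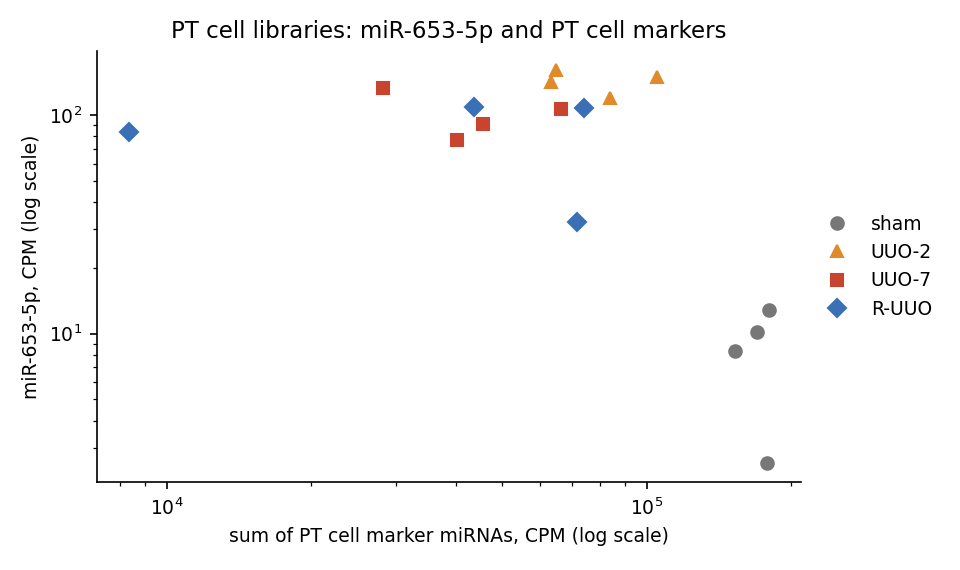
Each of the 16 PT libraries by the summed CPM of PT cell marker miRNAs (horizontal, log axis) and miR-653-5p in CPM (vertical, log axis). The 4 sham libraries sit at the lower right, at 152892 CPM or more of markers and no more than 12.8 CPM of miR-653-5p, and the R-UUO library of mouse 1 at the far left.

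The injury-response list holds miRNAs known from injured or inflamed tissue, such as miR-21a, miR-132, miR-155 and the miR-183 cluster. It does not hold miR-653-5p, and its values are given beside those of miR-653-5p for comparison. The list was drawn up with results of these data known. Its share of calls and its medians are therefore a description and no test of the list. Of its 14 names 11 could be tested in PT cells. At UUO-2 against sham 9 were higher and 2 were not called, with a median log2 fold change of 1.68 where all 330 loci had 0.02 and 19.1% were called. Of the miR-183 cluster, tied to epithelial and sensory cells, miR-96-5p was at 5.28 ± 1.42 (SE), the one locus above the 4.26 of miR-653-5p, and miR-183-5p at 3.28 ± 0.50. miR-21a-5p, the best known injury miRNA, was at 1.68 ± 0.36. On reversal (R-UUO against UUO-7) the median of the 11 was -0.01 where all loci had 0.03, and the lowest adjusted p was 0.0611 (edgeR). That result turned on the R-UUO library of mouse 1: without it the median of the 11 was -0.58 where all loci had 0.03. In that fit 2 were called lower, miR-21a-3p (-1.39, adjusted p = 0.0185, edgeR) and miR-21a-5p (-0.85, adjusted p = 0.0305). Of all its 336 loci, 5 were called lower and 10 higher.

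In ECs miR-653-5p was low in every condition. The sham libraries of mice 1 to 4 held 38, 20, 28 and 8 counts (1.08 to 4.47 CPM), and those at UUO-2 held 7, 4, 14 and 7 (0.845 to 2.51 CPM). At UUO-7 there were 10, 11, 21 and 24 counts (1.81 to 2.71 CPM) and in R-UUO 29, 18, 19 and 25 (1.74 to 4.83 CPM). All 4 groups overlapped.

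None of the 5 EC comparisons was called by edgeR (adjusted p from 0.420 to 0.988), 0 had an unadjusted p below 0.05 and DESeq2 called 0, where 1.71% of the 469 loci were called at UUO-2 against sham, 11.5% at UUO-7 against sham, 1.92% at UUO-7 against UUO-2, 1.07% in R-UUO against UUO-7 and 16.8% in R-UUO against sham. The change from sham was -0.38 on the log2 scale at UUO-2 (95% interval -1.41 to 0.66) and 0.01 at UUO-7 (-0.95 to 0.96). The difference from PT cells was not tested, because the PT values chose the members.

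In Macs miR-653-5p varied more between mice. The sham libraries held 51, 3, 12 and 1 counts, or 8.37, 1.43, 4.05 and 0.252 CPM, a wide spread within one group. At UUO-2 the counts were 21, 17, 18 and 15 (3.91 to 5.30 CPM). At UUO-7 those of mice 2 to 5 were 14, 7, 6 and 1, or 7.78, 2.28, 2.92 and 0.408 CPM. In R-UUO those of mice 1, 2, 4 and 5 were 39, 51, 20 and 7, or 12.5, 7.38, 7.62 and 6.33 CPM.

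The R-UUO Macs thus held the highest level outside PT cells, 8.44 ± 2.73 CPM (SD, n = 4), but overlapped UUO-7 through mouse 2 and sham through mouse 1. The log2 fold change was 1.65 ± 0.71 against UUO-7 (SE; adjusted p = 0.0962, edgeR) and 1.28 ± 0.66 against sham (adjusted p = 0.140), neither called. Macs were a population in which many loci moved, with 19.9% and 31.9% of the 457 loci called in these contrasts. Without the UUO-7 library of mouse 2 the first value was 2.49 (adjusted p = 0.0241), and without the sham library of mouse 1 the second was 2.17 (adjusted p = 0.0239), both called, in fits that called 22.2% and 32.1% of loci, with adjusted p from 0.0241 to 0.221 and from 0.0239 to 0.359 over all alternatives run. The summed PDGFR-β+ cell markers in Macs had a median of 7022 CPM at UUO-7 and 13402 CPM in R-UUO, and the PT cell markers 2799 and 1931 CPM, and their part in these values was not tested. The other 3 Mac contrasts were not called (adjusted p from 0.621 to 0.883, edgeR), where 27.6% of loci were called at UUO-2 against sham, 43.1% at UUO-7 against sham and 30.6% at UUO-7 against UUO-2.

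PDGFR-β+ cells were the one population outside PT cells in which a change was called, and it ran downward. The sham libraries of mice 1 to 4 held 50, 14, 28 and 13 counts of miR-653-5p, or 6.30, 2.67, 10.2 and 3.89 CPM. At UUO-2 the counts were 14, 29, 13 and 14, or 4.27, 4.33, 2.34 and 4.15 CPM. The 3 libraries at UUO-7, of mice 2, 4 and 5, held 13, 3 and 1 counts, or 2.99, 0.818 and 0.525 CPM. In R-UUO the counts were 20, 24, 49 and 25, or 4.38, 5.89, 5.59 and 5.86 CPM. The UUO-7 group was the lowest of all 16 groups, at 1.44 ± 1.35 CPM (SD, n = 3), and its library of mouse 2 overlapped sham and UUO-2 by library total. Under TMM scaling that library was at 2.44 CPM, below the lowest sham library (3.37 CPM) and just below the lowest UUO-2 library (2.58 CPM).

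At UUO-7 miR-653-5p had fallen by 2.30 ± 0.60 on the log2 scale against sham (SE; 95% interval -3.58 to -1.03; adjusted p = 0.00458, edgeR quasi-likelihood test). This contrast moved much of the population, with 48.2% of the 477 loci called and the median locus at 0.50 under TMM scaling, or at 1.02 when scaled by library size, where miR-653-5p stood at -1.87. It was -1.80 ± 0.60 against UUO-2 (adjusted p = 0.0264), where 33.8% of loci were called. That second call was lost with library size only, without the filter on low counts and without any 1 of 5 libraries: those of UUO-2 mice 1, 2 and 4 and of UUO-7 mice 4 and 5 (values -1.46 to -1.75, adjusted p up to 0.107; 0.00508 to 0.115 over all alternatives run). It was also lost with the replicate number as a block (-1.72, adjusted p = 0.0931). The counts of 3 and 1 behind the lower libraries leave the size of either fall uncertain.

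After reversal every PDGFR-β+ library was above every UUO-7 library, as were those of 4.82% of the loci. The log2 fold change was 2.00 ± 0.59 (SE) with an adjusted p of 0.0703 in edgeR, not called, in a contrast in which 3.98% of loci were called. DESeq2 called it (2.06, adjusted p = 0.0118), with 7.34% of loci called, and so did edgeR without the UUO-7 library of mouse 2 (3.14, adjusted p = 0.0221), with 2.02% of loci called. It was also called without the R-UUO library of mouse 1 (2.05, adjusted p = 0.0308), in a fit that called 75 of 460 loci, 16.3%. The adjusted p ran from 0.0118 to 0.332 over all alternatives run. The remaining contrasts, UUO-2 against sham (-0.51, adjusted p = 0.588) and R-UUO against sham (-0.31, adjusted p = 0.623), were not called by edgeR, where 6.29% and 41.7% of loci were.

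Markers moved in the same PDGFR-β+ libraries. The summed markers of PDGFR-β+ cells had medians of 258618 CPM for sham, 176978 for UUO-2, 161321 for UUO-7 and 113376 for R-UUO. Those of PT cells had medians of 2038, 1539, 1466 and 1095 CPM, and those of Macs (miR-142a and miR-223) 45.0, 221.5, 322.3 and 129.6 CPM. Their part in the values of miR-653-5p was not tested.

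**Figure D4:**
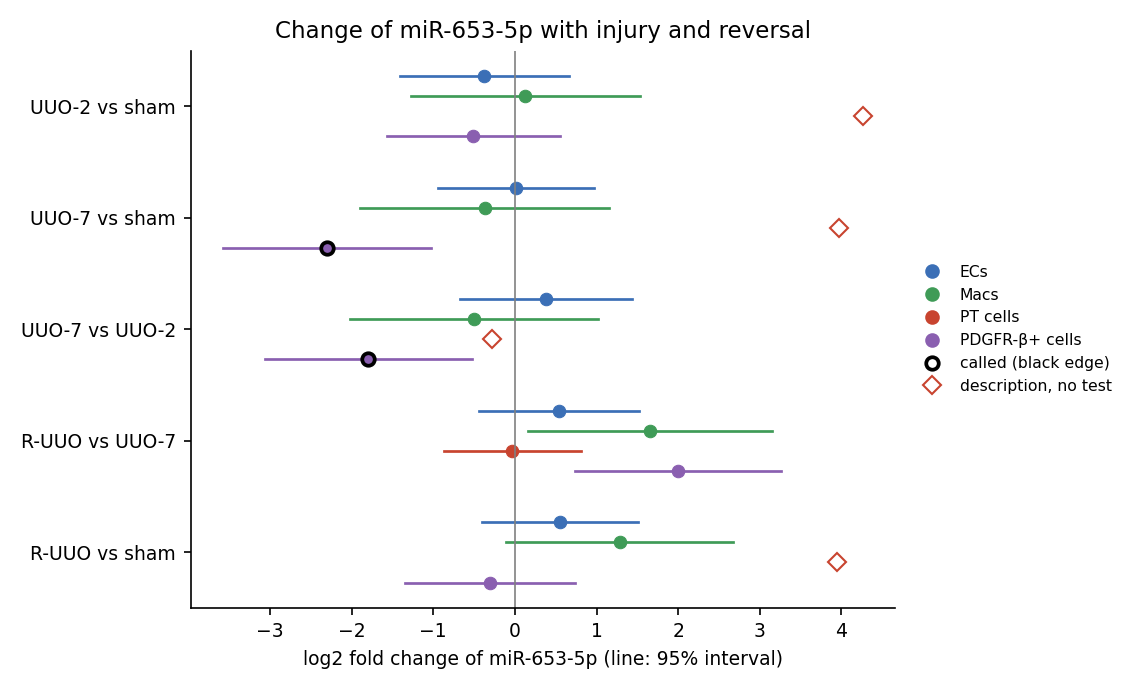
log2 fold change of miR-653-5p in 5 contrasts by cell type, with 95% intervals; black edges mark called changes and open diamonds the PT values given without a test. PT cells lie near 4 in the contrasts against sham, and PDGFR-β+ cells fall by 2.30 at UUO-7 against sham.

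The difference between PT cells and the other populations in the change on reversal was not called with all libraries. Its interval, which is not adjusted over all loci, excludes 0. In the fits of single cell types the log2 change was -0.03 in PT cells, 0.54 in ECs, 1.65 in Macs and 2.00 in PDGFR-β+ cells, none called. The values of Macs and PDGFR-β+ cells rest on UUO-7 libraries of 14, 7, 6 and 1 counts and of 13, 3 and 1 counts. From UUO-7 to R-UUO the change in PT cells minus the mean change in the other 3 populations was -1.50 ± 0.57 on the log2 scale (SE; 95% interval -2.64 to -0.37; unadjusted p = 0.0106, adjusted p = 0.316, edgeR), in a test that called 0.596% of the 671 loci. Without the R-UUO PT library of mouse 1, which stood apart in its markers, the value was -1.97 and was called (adjusted p = 0.0444, the lowest of a range that reached 0.723). That fit called 27 of 677 loci, 3.99%, against 4 loci with the library, and 23 of the 27 were lower.

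Ordered by mean level over the 16 groups, miR-653-5p was highest in the PT cells of UUO-2 mice, then of UUO-7 mice and of R-UUO mice, followed by sham PT cells (8.46 CPM), R-UUO Macs (8.44 CPM) and sham PDGFR-β+ cells (5.78 CPM). ECs took 4 of the lower places, between 1.94 and 3.04 CPM. Of the 15 pairs of neighbours in this order 14 had overlapping ranges. The sole gap lay between R-UUO PT cells, with a lowest library of 32.4 CPM, and sham PT cells, with a highest of 12.8 CPM.

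The 3p strand of miR-653 was almost absent. mmu-miR-653-3p had 4 counts in all 63 libraries, 3 in PT cells of mouse 4 at UUO-7 and 1 in ECs of mouse 5 at UUO-7. In the library with 3 counts, 678 of 681 counts of the hairpin came from the 5p strand, 99.6% (95% Wilson interval 98.7% to 99.9%). In each other PT library all counts came from the 5p strand, with lower Wilson limits of 96.3% or more in the other libraries with at least 100 counts. The 5p share had a mean of 100% in R-UUO and of 99.9% at UUO-7. A two-sided exact permutation test of these 4 against 4 libraries could give nothing but p = 1. Only 1 of the libraries was below 100%, so every split has a difference of the same size, and the test decides nothing. The Wilson intervals cover counting error only.

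mmu-miR-489-3p was far rarer than its neighbour and was seen mostly in PT cells. The PT libraries held 0, 0, 0 and 0 counts for sham, 0, 9, 7 and 2 for UUO-2, 8, 2, 29 and 2 for UUO-7 and 3, 1, 0 and 1 for R-UUO. So 64 of its counts came from PT cells, 83.1% of all, in 10 of 16 PT libraries. The other populations held 13 counts in 6 of 47 libraries, although their summed depth was 237888872 counts against 24970258 in PT cells. The opposite strand, mmu-miR-489-5p, had 0 counts in every library.

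Outside PT cells the counts of miR-489-3p were scattered. ECs held 1 count in each of sham mice 3 and 4, 5 in mouse 3 at UUO-2 and 4 in mouse 3 at UUO-7. Macs of mouse 1 at UUO-2 and PDGFR-β+ cells of mouse 2 at UUO-7 held 1 each, and R-UUO libraries outside PT cells held 0.

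**Figure D5:**
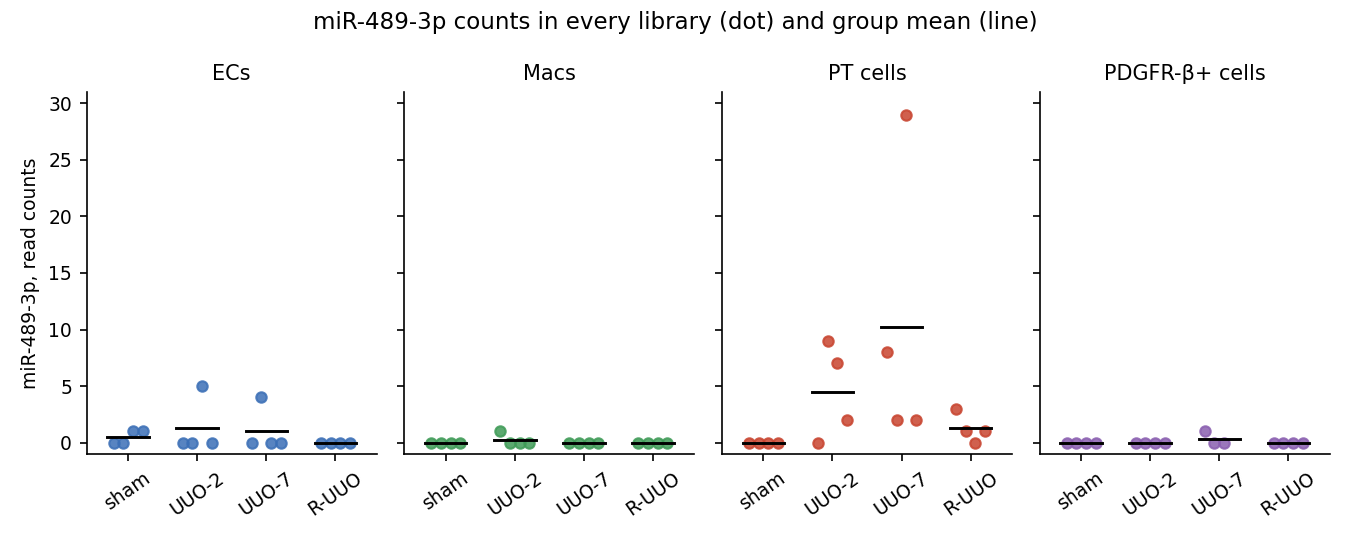
Read counts of miR-489-3p in each library (dots) by cell type and condition, with the group mean as a line. PT cells at UUO-2 and UUO-7 reach 9 and 29 counts, sham PT cells are at 0, and no other population exceeds 5.

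Pooled over a group, miR-489-3p in PT cells was 3.83 CPM at UUO-2 (95% exact Poisson interval 2.27 to 6.05), 3.70 CPM at UUO-7 (2.65 to 5.02) and 0.824 CPM in R-UUO (0.268 to 1.92; 0.680 without mouse 1). In sham 0 of 3114777 counts allow a level of up to 0.963 CPM, taking 3 counts over the group as the limit. The pooled level was 3.98 times that limit at UUO-2 and 3.84 times it at UUO-7, as a description. These are no lower bounds of the rise, because the error of the pooled level is left out. The exact 95% Poisson interval in sham reached 1.18 CPM. Single libraries carried much of the rise. The pooled level was 2.59 times the limit without mouse 2 at UUO-2. At UUO-7 it was 2.08 times the limit without mouse 4, which held 29 of the 41 counts. No fold is given for R-UUO, whose level is under the limit. A miRNA of this depth passed the filter only in the fit over all libraries, through PT cells, where it was high, so no test of its change is given.

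The ratio of the neighbours was examined in the PT libraries of UUO-7 and R-UUO. For each 100 counts of miR-653-5p there were 4.71, 1.12, 4.28 and 1.04 counts of miR-489-3p at UUO-7 and 1.15, 0.658, 0 and 1.00 in R-UUO. The means were 2.79 ± 1.98 and 0.701 ± 0.510 (SD, n = 4 each), with an R-UUO mean of 0.553 without mouse 1 and 0.934 without mouse 4. The R-UUO library at 1.15 overlapped the UUO-7 range, and the library at 0, of mouse 4, held 20 counts of miR-653-5p, too few to see a ratio under 15 per 100, which is above every value of either group. No test of the ratio is given for that reason.

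The miRNA that shares the seed of miR-489-3p was much more abundant and was not called in PT cells. miR-425-5p in PT cells averaged 308.4 ± 18.6 CPM for sham, 211.7 ± 42.3 for UUO-2, 216.5 ± 34.0 for UUO-7 and 160.1 ± 67.7 for R-UUO (SD, n = 4 each). The R-UUO library of mouse 1 held 61.5 CPM, and without it the R-UUO mean was 193.0 ± 19.7 CPM (SD, n = 3). Its mean CPM was 55.3 to 194 times the pooled CPM of miR-489-3p in the conditions where the latter was seen, which sets a mean against a pooled value. With both pooled, miR-425-5p was at 220.4, 209.9 and 127.3 CPM for UUO-2, UUO-7 and R-UUO, beside 3.83, 3.70 and 0.824 CPM of miR-489-3p. The 194 was that of R-UUO with the library of mouse 1, without which miR-489-3p was at 0.680 CPM pooled. In PT cells its log2 fold change was -0.37 ± 0.17 at UUO-2 against sham and -0.40 ± 0.16 in R-UUO against UUO-7 (SE; adjusted p = 0.121 and 0.223, edgeR). In R-UUO against sham it was -0.57 ± 0.17 (SE; adjusted p = 0.0131, edgeR), past the threshold of p but not of fold. Without the R-UUO library of mouse 1 these R-UUO values were -0.29 against UUO-7 and -0.45 against sham (adjusted p = 0.301 and 0.0399, edgeR).

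The loci most like miR-653-5p over the 16 group means of log2 CPM were miR-346-5p (Pearson r = 0.926), miR-141-5p (0.887), miR-200c-3p (0.886), miR-183-3p (0.884) and miR-200b-3p (0.881), out of 669 loci. Those most like miR-489-3p were miR-6978-3p (0.908), miR-200c-3p (0.904) and miR-183-3p (0.895). The groups share mice and depth, so these are descriptions. miR-489-3p passed the filter only through PT cells, and in no group outside them did it exceed 0.293 CPM pooled. Its correlations, that with miR-653-5p included, therefore set PT cells against values near 0 and decide nothing. By Spearman's correlation 2 of the 5 and 0 of the 3 were listed again, and miR-653-5p itself had a Pearson r of 0.876 and a Spearman rho of 0.280 with miR-489-3p. Levels differed widely among these loci. In PT cells of sham, UUO-2 and UUO-7 mice miR-200c-3p averaged 20.2 ± 15.6, 80.6 ± 13.5 and 124.6 ± 19.5 CPM, and miR-200b-3p 4537 ± 582, 5856 ± 343 and 5146 ± 536 CPM (SD, n = 4 each). miR-6978-3p, like miR-489-3p, was at 0 in every sham PT library and had means of 6.70 ± 3.47 CPM for UUO-2, 7.85 ± 4.21 for UUO-7 and 1.35 ± 0.226 for R-UUO.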

How the data were processed

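Small RNA libraries of 4 sorted populations from 16 mice were analysed from raw counts per locus of a mature miRNA, as deposited. The authors trimmed reads with Trim Galore 0.4.1 and cutadapt 1.1, aligned them with ShortStack, which runs Bowtie, to GRCm38 and miRBase 22, and deposited counts without normalization. Strand and the placing of multi-mapping reads are not given in the sources used here. Groups come from the sample labels. The members and lists were chosen with earlier results of these data known.

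The counts were tested in R 4.3.3 with edgeR 4.0.16 (filterByExpr, TMM, glmQLFit, glmQLFTest, prior count 2) over all libraries of a cell type, or over 63 libraries for comparisons between cell types, with Benjamini-Hochberg adjustment over all loci. A call required an adjusted p below 0.05 and a fold change over 1.5. Correlations, intervals and exact permutation tests used Python with scipy. In the fits of one cell type p-values measure the spread between mice. In the fits over 63 libraries they measure the spread between libraries, and libraries of one mouse entered as independent except with the mouse block. The named miRNAs are the 3 members, loci within 10 kb, miRNAs sharing a seed, the 5 loci most like miR-653-5p and the 3 most like each other member that passed the filter, and at most 4 of a list.

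No 2 replicates differed by less than sampling noise (chi-square per degree of freedom at least 8.96 over 93 pairs). Total counts ranged from 616565 to 10819385, so 3 counts equal 0.277 to 4.87 CPM. Libraries of one mouse come from the same animal, and the mouse as a block changed no call between cell types. On simulated data with a log2 change of 2, the tests of R-UUO against UUO-7 recovered 161 of 165 loci in PT cells, 186 of 200 in ECs, 182 of 200 in Macs and 154 of 200 in PDGFR-β+ cells. That of PT cells against the others recovered 139 of 200, and that of the difference 116 of 200, with 0 in the wrong direction. Alternatives were DESeq2 1.42.0, library size only, no filter, only the compared groups, a replicate block, other summaries, and leaving out each replicate. The list medians, marker medians and pooled miR-489-3p levels against the sham limit without single libraries were chosen after seeing the data.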

Additional observations from a re-analysis of the deposited data

Results flagged for a closer look

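Of 21 groups of 4 libraries examined, those in which a member reached 3 counts, 4 held a flagged library. Such a library lies farther from the others than Dixon's 95% limit allows. For normally distributed values chance flags about 1 group in 20. In PDGFR-β+ cells at UUO-2, mouse 3 had 2.34 CPM of miR-653-5p (13 counts), below the other 3 libraries. In ECs, mouse 3 held 0.783 CPM of miR-489-3p at UUO-2 (5 counts) and mouse 3 of another group 0.831 CPM at UUO-7 (4 counts), with 0 counts in the other 3 libraries of each group. In PT cells at UUO-7, mouse 4 held 0.589 CPM of miR-653-3p (3 counts), in the deepest PT library, with 0 in the other 3. The last 3 rest on a few counts against 0. A sole library with counts passes the limit whatever its count, so the rate of 1 in 20 does not apply to them.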

How the results depend on the processing

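Of 328 alternative values of miR-653-5p over 23 comparisons, 299 kept their direction and, where a test was given, their side of the threshold. Among them were all for PT cells against the other populations at UUO-7 (5.22 to 5.84) and in R-UUO (3.51 to 4.31), and for PDGFR-β+ cells at UUO-7 against sham (-3.45 to -1.87). All PT values against sham are also among them, but they carry no test and so have no side of a threshold to keep. In PDGFR-β+ cells UUO-7 against UUO-2 lost its call with library size only (-1.27), with no filter (-1.74) and with the replicate block (-1.72). It was also lost on leaving out some single libraries. All its leave-outs ran from -2.94 to -1.46, and that at -2.94 kept the call. There R-UUO against UUO-7 gained a call with DESeq2 (2.06) and in the leave-outs at 2.05 and 3.14, where all ran from 1.67 to 3.14. In Macs R-UUO against UUO-7 gained one with no filter (1.58) and in 1 leave-out (2.49, where all ran from 1.29 to 2.49). R-UUO against sham in Macs gained one in 1 leave-out (2.17, where all ran from 0.78 to 2.17). The difference of the change on reversal gained one in 1 leave-out (-1.97, where all ran from -2.01 to -1.19). Values near 0 that were never called changed sign: R-UUO against UUO-7 in PT cells with only the compared groups (0.0073) and in leave-outs (-0.45 to 0.25), UUO-7 against sham in ECs with library size only (-0.15) and in leave-outs (-0.13 to 0.51) and in Macs with the replicate block (0.28) and in leave-outs (-1.33 to 0.49), and UUO-2 against sham in leave-outs in ECs (-0.55 to 0.078) and Macs (-0.40 to 0.98). The cause was not tested. In Macs at UUO-7 against sham, a fit of only the compared groups removed miR-653-5p by its filter.

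The replicate block changed no other call. Same-numbered libraries of different conditions are different mice, and their deviations correlated between -0.60 and 0.28, above 0.1 in 13 of 62 pairs. The number of loci called moved by over 1.5 times in 8 of 19 comparisons, over all alternatives and leave-outs: 5 for R-UUO against UUO-7 in PT cells (0 to 24), 5 for the same in ECs (1 to 39) and 19 in PDGFR-β+ cells (3 to 75, the highest without R-UUO mouse 1), 8 for UUO-2 against sham in ECs (4 to 28) and 30 in PDGFR-β+ cells (19 to 49), 54 for UUO-7 against sham in ECs (35 to 75, the lowest without sham mouse 2), 9 for UUO-7 against UUO-2 in ECs (5 to 16) and 4 for the difference (1 to 27, the highest without the R-UUO PT library of mouse 1). The ratio of miR-489-3p to miR-653-5p and the 5p share kept their direction with pooled counts and in leave-outs, except that the share did not differ without UUO-7 mouse 4. Outside PT cells 12 of 47 libraries held under 10 counts of miR-653-5p, which limits those folds.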
